A study of Mus musculus with 3 samples.

Results

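Ighv genes are the variable segments of the immunoglobulin heavy-chain locus. They were taken as all genes of the count table whose mouse symbol starts with Ighv, which gave 120 of 27179 gene IDs, in 16 families named by the first number of the symbol. The 120 segments were measured by RNA sequencing in 3 libraries of group 2 innate lymphoid cells (ILC2s), 1 from each of 3 wild-type C57BL/6 mice, called mouse 1, mouse 2 and mouse 3 after the sample numbers. ILC2s are tissue lymphocytes that make type 2 cytokines and display no rearranged antigen receptor on their surface. The sort kept cells with KLRG1, CD127, CD90.2 and CD45 and discarded those with B220, NK1.1, CD11c, CD8, CD11b, CD3 or CD5. B220 marks most B cells but not most plasma cells. The mice had no treatment in the labels, and the sources used here do not give tissue, age or sex. All 3 libraries form 1 group, so no condition was compared.

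An antibody heavy chain is encoded by an exon that developing B cells assemble from 1 V, 1 D and 1 J segment, and the resulting exon is spliced to a constant region such as Ighm (IgM) or Igha (IgA). All descendants of a B cell inherit its V segment, and plasma cells, which secrete antibody, hold very large amounts of the rearranged transcript. V segment usage in RNA is therefore commonly read as a description of which B-lineage clones a sample holds. Libraries held 17819551 to 26374248 counts. In these libraries all 10 ILC2 marker genes reached 1 CPM (1 count per 1000000 counts) in each mouse, with a summed level of 14671 to 18736 CPM.

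The reference sequences of the 5 segments that held the highest or second highest share of Ighv counts in a mouse are shown because the usage results turn on them. Each is the germline V region of GRCm38 (GENCODE M21), read 5′ to 3′ on the minus strand of chromosome 12. Capitals mark the bases that differ from the most similar other Ighv segment of the table. They lie at chr12:114583569-114583862 (Ighv1-9), chr12:115920279-115920572 (Ighv1-81), chr12:115647946-115648245 (Ighv8-12, whose last base is left out), chr12:113838528-113838821 (Ighv5-16) and chr12:115158403-115158696 (Ighv1-53).
Ighv1-9: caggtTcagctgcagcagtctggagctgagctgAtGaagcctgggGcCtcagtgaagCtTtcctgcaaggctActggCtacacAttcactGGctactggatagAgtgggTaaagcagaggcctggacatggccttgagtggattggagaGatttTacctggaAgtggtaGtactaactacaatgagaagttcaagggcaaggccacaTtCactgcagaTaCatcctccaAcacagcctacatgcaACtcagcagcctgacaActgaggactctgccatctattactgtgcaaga
Ighv1-81: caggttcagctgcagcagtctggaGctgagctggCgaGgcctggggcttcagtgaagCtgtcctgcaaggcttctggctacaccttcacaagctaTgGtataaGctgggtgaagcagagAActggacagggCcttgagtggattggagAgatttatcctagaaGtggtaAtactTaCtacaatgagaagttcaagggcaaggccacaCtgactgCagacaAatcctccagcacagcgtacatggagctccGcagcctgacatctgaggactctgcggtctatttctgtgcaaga
Ighv8-12: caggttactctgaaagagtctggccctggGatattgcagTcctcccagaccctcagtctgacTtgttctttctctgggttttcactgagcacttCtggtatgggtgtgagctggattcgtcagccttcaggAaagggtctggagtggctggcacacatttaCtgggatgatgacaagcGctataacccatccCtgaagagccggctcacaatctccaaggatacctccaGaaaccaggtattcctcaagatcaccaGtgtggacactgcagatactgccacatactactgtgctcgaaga
Ighv5-16: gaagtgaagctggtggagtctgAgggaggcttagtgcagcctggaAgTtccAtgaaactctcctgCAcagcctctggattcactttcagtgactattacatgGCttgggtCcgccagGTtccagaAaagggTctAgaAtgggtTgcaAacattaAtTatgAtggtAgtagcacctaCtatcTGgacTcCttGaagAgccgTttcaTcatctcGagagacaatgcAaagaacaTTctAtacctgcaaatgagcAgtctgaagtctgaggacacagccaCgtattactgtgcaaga
Ighv1-53: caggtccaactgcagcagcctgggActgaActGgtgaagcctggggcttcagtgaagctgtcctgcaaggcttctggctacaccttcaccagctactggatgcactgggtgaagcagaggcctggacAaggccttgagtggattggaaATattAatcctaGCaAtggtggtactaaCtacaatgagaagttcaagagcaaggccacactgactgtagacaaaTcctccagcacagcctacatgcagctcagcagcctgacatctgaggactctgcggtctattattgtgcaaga
Ighv5-16 differed from its nearest relative, Ighv5-12, by 39 substituted, inserted or deleted bases, and Ighv1-9 from Ighv1-63 by 30. Ighv1-81 differed from Ighv1-85 by 21, Ighv1-53 from Ighv1-72 by 12 and Ighv8-12 from Ighv8-13 by 11. Of the 50-base windows of the Ighv5-16 and Ighv1-9 transcripts, 100% occurred in no other Ighv transcript of GENCODE M21. That share was 88.4% for Ighv1-81, 80.3% for Ighv8-12 and 42.4% for Ighv1-53, so the last is the least certain of the 5. Between printed segments of different families identity was 58.7% to 66.0%, and between the 3 of family 1 it was 86.9% to 89.3%.

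The sum over all Ighv segments was 11265, 10301 and 62870 counts in mice 1, 2 and 3. As a share of the library this was 0.0509% in mouse 1, with a 95% Wilson interval from 0.05001% to 0.0519%. Mouse 2 had 0.0578% (interval from 0.0567% to 0.0589%) and mouse 3 had 0.238% (from 0.237% to 0.240%). On this scale mouse 3 stood well above the others, which lay close together. As a share of all immunoglobulin counts the order was different, with 4.89%, 1.49% and 3.05% in mice 1, 2 and 3. The mean share of the library was 0.116% ± 0.106 (SD, n = 3), and 0.0544% ± 0.0049 without mouse 3. Reads carried no molecular identifiers, so the intervals here and below cover counting error only.

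The Ighv sum kept a nearly fixed ratio to the other parts of the heavy-chain transcript. For every 100 counts of the 8 heavy-chain constant genes there were 25.8, 25.6 and 24.7 Ighv counts in mice 1, 2 and 3 (25.4 ± 0.55, SD, n = 3). The 4 joining segments (Ighj) had 1224, 1164 and 6683 counts, and the 10 diversity segments, which are very short, had 0, 9 and 4. Igha made up 90.3%, 89.1% and 96.3% of the constant-gene counts and Ighm 9.66%, 10.6% and 3.44%. For every 100 counts of the kappa constant gene (Igkc) there were 51.7, 78.3 and 70.1 counts of kappa variable segments (Igkv), a ratio with a wider spread (66.7 ± 13.6, SD, n = 3). Heavy and light chains did not scale together, with 5.01, 24.1 and 9.93 Igkv counts for each Ighv count.

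**Figure D1:**
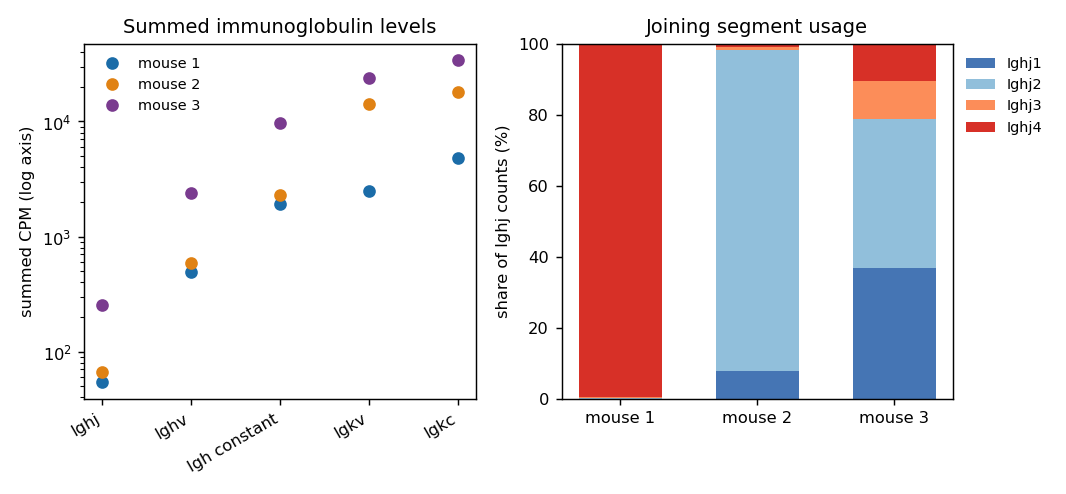
Left, summed CPM (log axis) of the joining, variable and constant heavy-chain genes and of the kappa variable and constant genes, 1 point per library. Right, share of Ighj counts (%) taken by each joining segment, where Ighj4 holds 99.5% in mouse 1 and Ighj2 holds 90.7% in mouse 2.

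Joining segment usage also differed sharply between the mice. Ighj4 had 1218 counts in mouse 1, 10 in mouse 2 and 704 in mouse 3. Ighj2 had 3, 1056 and 2795, and Ighj1 had 0, 89 and 2466. Mouse 1 thus held 1 joining segment almost alone (Ighj4, 99.5%), mouse 2 another (Ighj2, 90.7%), and mouse 3 divided its counts over Ighj2 (41.8%), Ighj1 (36.9%), Ighj3 (10.7%) and Ighj4 (10.5%).

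Of the 120 segments 78 had a count in some library, 24 in all 3, and 42 had none. A level of 1 CPM was reached by 8, 13 and 14 segments in mice 1, 2 and 3 and by 27 in at least 1 of them. Only 1 segment, Ighv1-81, reached 1 CPM in all 3 mice, and it stayed the only one at 5 CPM. Without mouse 3 there were 5 such segments and without mouse 1 there were 3. Mouse 3 had counts for 66 segments, against 42 and 43. Brought to the lowest library total by calculation, mice 1 and 3 would have 37.9 and 59.6. Brought to the lowest Ighv total of 10301 counts, a calculation added after the data were seen, mice 1, 2 and 3 would have 40.2, 43 and 39.4, so mouse 3 was not above the others at equal Ighv depth. A count of 0 allows up to 0.115 to 0.171 CPM at these depths.

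Counts were concentrated in few segments. The 15 segments with at least 100 counts in a library held 96.8%, 97.2% and 99.4% of Ighv counts in mice 1, 2 and 3. The other 105 segments, of which 63 had a count, never exceeded 96 counts in a library. Among the 15, 12 had over 90% of their summed CPM in a single mouse, and the exceptions were Ighv1-81, Ighv1-9 and Ighv1-26. The highest value lay in mouse 3 for 10, in mouse 2 for 4 and in mouse 1 for 1.

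**Figure D2:**
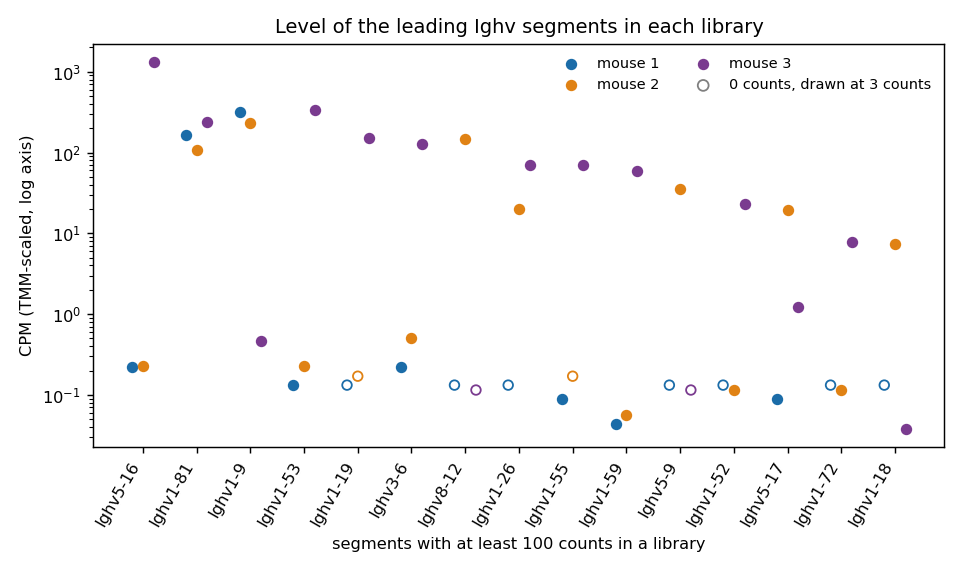
TMM-scaled CPM (log axis) of the 15 segments with at least 100 counts in a library, 1 point per library, with open circles at the level of 3 counts for libraries with 0 counts. Ighv1-81 is high in all 3 mice, Ighv1-9 in mice 1 and 2, and most others in 1 mouse.

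Ighv1-9 was the leading segment in mice 1 and 2 and was nearly absent from mouse 3. It had 7107, 4101 and 12 counts, or 314, 233 and 0.460 CPM, in mice 1, 2 and 3. Mice 1 and 2 lay within 1.34-fold of each other, and mouse 1 was 681-fold above mouse 3, where the segment ranked 24 among the Ighv genes.

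Ighv1-81 was shared by all 3. It had 3777, 1888 and 6294 counts, or 167, 107 and 241 CPM (172 ± 67.2, SD, n = 3). The highest and lowest mice differed by 2.25-fold. The ratio of Ighv1-9 to Ighv1-81 counts was 1.88 in mouse 1 and 2.17 in mouse 2.

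Ighv5-16 was the leading segment of mouse 3. It had 5, 4 and 34098 counts, or 0.221, 0.227 and 1308 CPM. The level in mouse 3 was 5928-fold and 5748-fold above mice 1 and 2.

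Mouse 3 held a series of further segments that were at or near 0 elsewhere. Ighv1-53 had 3, 4 and 8816 counts, or 0.132, 0.227 and 338 CPM. Ighv1-19 had 0, 0 and 3890 counts and Ighv3-6 had 5, 9 and 3312. Ighv1-55 had 2, 0 and 1839 counts, Ighv1-59 had 1, 1 and 1543, Ighv1-52 had 0, 2 and 604, and Ighv1-72 had 0, 2 and 204.

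Mouse 2 held its own. Ighv8-12 had 0, 2561 and 0 counts, with 146 CPM in mouse 2, at least 1100-fold above mouse 1 and at least 1266-fold above mouse 3 when those are set to 3 counts per library. Ighv5-9 had 0, 623 and 0 counts, Ighv5-17 had 2, 339 and 32, and Ighv1-18 had 0, 130 and 1. Ighv1-26, with 0, 350 and 1817 counts, and Ighv5-17 reached 1 CPM in mice 2 and 3 but not in mouse 1. Apart from Ighv1-9 and Ighv1-81, mouse 1 held no segment above 96 counts. The next in rank there were Ighv1-58 (96, 49 and 19 counts), Ighv1-85 (80, 49 and 3) and Ighv1-63 (50, 34 and 4), which were also higher in mouse 2 than in mouse 3.

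Ighv1-63 and Ighv1-85 are the most similar segments to Ighv1-9 and Ighv1-81. Ighv1-63 had 0.704% and 0.829% of the Ighv1-9 counts in mice 1 and 2. Ighv1-85 had 2.12%, 2.60% and 0.0477% of the Ighv1-81 counts in mice 1, 2 and 3. In mouse 3, Ighv1-72 had 2.31% of the counts of Ighv1-53, whose nearest segment it is. Such small counts may hold reads from the abundant relative, and that was not tested. Larger counts of close relatives have the same limit. Ighv1-26 had 46.7% of the counts of Ighv1-19 in mouse 3, and Ighv1-18 had 37.1% of those of Ighv1-26 in mouse 2. Of 50-base windows, 94.6% occurred in no other Ighv transcript for Ighv1-19, 64.2% for Ighv1-18 and 51.0% for Ighv1-26. That share was 34.4% for Ighv1-52 and 7.49% for Ighv1-72, and below 50% for 15 of 116 segments. Over the 116 segments with a V region that could be read, the median distance to the nearest segment was 14 bases (range 2 to 79), and none was identical to another.

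Dominance by the first segment was strong in each library. Ighv1-9 held 63.1% of the Ighv counts of mouse 1 (95% Wilson interval 62.2% to 63.98%) and 39.8% of those of mouse 2 (38.9% to 40.8%). Ighv5-16 held 54.2% of those of mouse 3 (53.8% to 54.6%). The mean was 52.4% ± 11.7 (SD, n = 3). The second segment was Ighv1-81 in mouse 1 (33.5%), Ighv8-12 in mouse 2 (24.9%) and Ighv1-53 in mouse 3 (14.0%). The third was Ighv1-58 in mouse 1 at only 0.852%, and Ighv1-81 in mice 2 and 3 at 18.3% and 10.01%.

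A level of 50% of the Ighv counts was reached with 1, 2 and 1 segments in mice 1, 2 and 3. It took 2, 5 and 6 segments to reach 90%. The inverse Simpson index, the number of equally used segments that would give the same concentration, was 1.96, 3.85 and 3.00. The 5 leading segments held 98.6%, 92.4% and 89.7%. Of these 5, mice 1 and 2 shared 2 (40% of each list), Ighv1-9 and Ighv1-81, and each other pair shared 1 (20% of each list), Ighv1-81. Exonic lengths of the 120 segments had a median of 353 bases and reached up to 480. Per length, the first segment held 63.1%, 40.6% and 53.0% of the Ighv level.

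**Figure D3:**
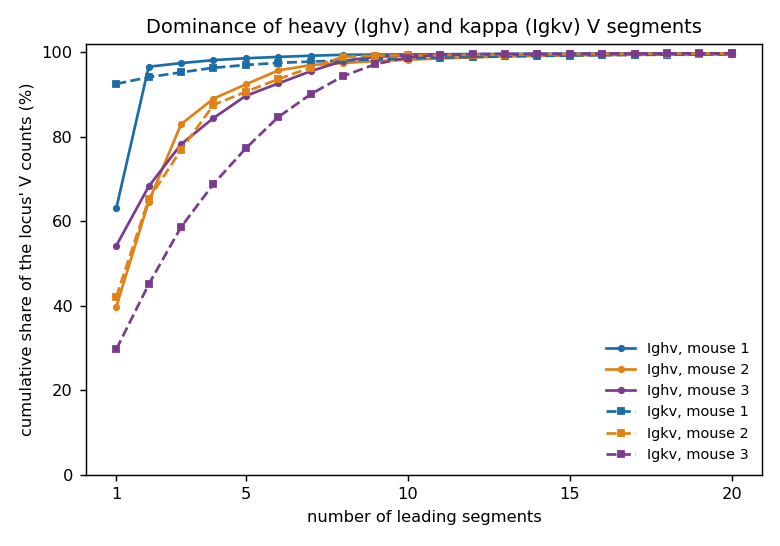
Cumulative share (%) of V counts held by the 1 to 20 leading segments of each library, solid for Ighv and dashed for Igkv. In mouse 1 the curves start at 63.1% (Ighv) and 92.6% (Igkv), and in mouse 3 at 54.2% and 29.7%.

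The kappa light-chain segments of the same libraries gave no uniform difference in dominance. The first Igkv segment held 92.6% in mouse 1 (Igkv1-117), 42.1% in mouse 2 (Igkv11-125) and 29.7% in mouse 3 (Igkv6-15). The share of the first Ighv segment minus that of the first Igkv segment was -29.5, -2.33 and 24.5 percentage points, with a mean of -2.42 ± 27.0 (SD, n = 3). The exact two-sided sign-flip permutation test gave p = 0.75, and 3 libraries allow no p below 0.25. Without mouse 1 the mean difference turned to 11.1. Of the lambda segments, Iglv1 led in every mouse, with 86.0%, 92.5% and 99.4% of the counts of 3 segments.

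Family usage followed the leading segments. Ighv1, which holds 60 of the 120 segments (50%), took 99.1%, 64.6% and 40.2% of Ighv counts in mice 1, 2 and 3. The 95% Wilson intervals ran from 98.9% to 99.2%, from 63.7% to 65.5% and from 39.8% to 40.6%. Ighv5, with 10 segments, took 0.426%, 9.65% and 54.4%. Ighv8, also with 10, took 24.9% in mouse 2 and had 0 counts in mouse 1, which allows up to 0.0266%, and 1 count in mouse 3. Ighv3, with 6 segments, took 0.0799%, 0.417% and 5.30%.

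**Figure D4:**
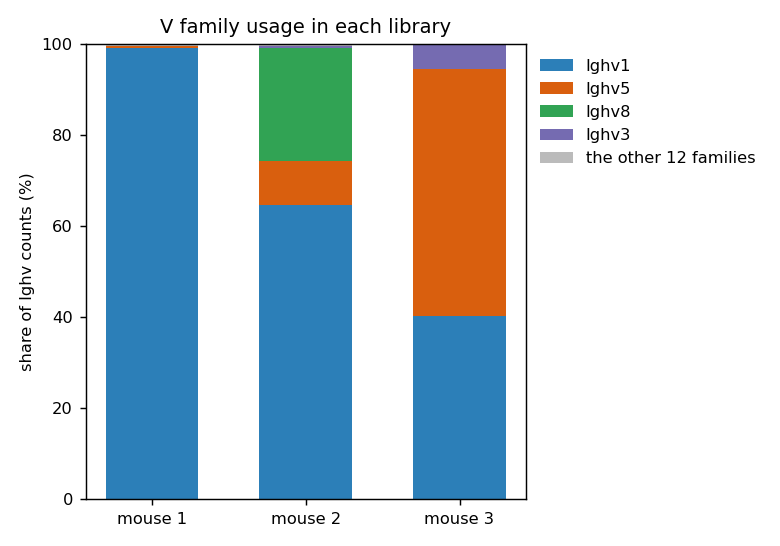
Share of Ighv counts (%) taken by each V family in each library, stacked to 100%. Ighv1 falls from 99.1% in mouse 1 to 40.2% in mouse 3, where Ighv5 holds 54.4%, and Ighv8 is visible only in mouse 2.

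Within families a single segment usually carried the counts. In mouse 3, Ighv5-16 was 99.7% of Ighv5 and Ighv3-6 was 99.5% of Ighv3, and in mouse 2 Ighv8-12 was 99.9% of Ighv8. Ighv5 was led by other segments elsewhere, by Ighv5-9 in mouse 2 (62.7% of the family) and by Ighv5-12 in mouse 1 (72.9% of only 48 counts). In Ighv1 the leader held 63.7%, 61.6% and 34.9% in mice 1, 2 and 3, and it was Ighv1-9, Ighv1-9 and Ighv1-53.

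Ighv1 exceeded Ighv5, the family with the next highest mean, by 98.6 and 55.0 percentage points in mice 1 and 2. In mouse 3 it was below Ighv5, with a difference of -14.2 points. The mean was 46.5 ± 56.9 (SD, n = 3; exact two-sided sign-flip permutation p = 0.5). It was 20.4 without mouse 1 and 76.8 without mouse 3. With the first segment of each library left out, Ighv1 was above Ighv5 by 69.6 ± 38.7 points on average (SD, n = 3). The exact two-sided sign-flip permutation test gave p = 0.25, the lowest that 3 libraries allow. In mouse 3 the segment left out was Ighv5-16, with 34098 of the 34196 Ighv5 counts. The direction in mouse 3 was thus fixed by the removal and adds nothing on the families. Of the 8, 13 and 14 segments that reached 1 CPM, Ighv1 made up 75%, 53.8% and 64.3%, beside 50% of all 120 segments. Ighv5 made up 12.5%, 23.1% and 21.4% of them, beside 8.33% of all 120.

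Little came from the remaining families. Ighv6 had 37, 27 and 18 counts in mice 1, 2 and 3, led by Ighv6-3 in mice 1 and 3 and by Ighv6-6 in mouse 2, and Ighv9 had 5, 7 and 19. The single Ighv15 segment had 0, 1 and 37. Ighv14 had 0, 3 and 9 counts, Ighv10 had 4, 5 and 2, and Ighv4 had 2, 0 and 4. The 9 segments of Ighv2 had 2, 1 and 0 counts in all. The 5 families Ighv7, Ighv11, Ighv12, Ighv13 and Ighv16, with 8 segments together, had no counts. Of these, Ighv11 and Ighv12 are known from B-1 cells that bind phosphatidylcholine. Of the 9 segments that GENCODE marks as pseudogenes 4 had a count, led by Ighv1-83 with 1, 0 and 38.

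The segments lie in 1 cluster on chromosome 12, from Ighv5-2 near the D segments to Ighv1-86 at the far end, 149 to 2580 kb from Ighj1. Ordered by position and divided into 3 sets of 40, the set nearest to the D segments took 0.586%, 10.2% and 59.7% of Ighv counts in mice 1, 2 and 3. The middle set took 63.5%, 44.9% and 9.29%, and the far set 35.9%, 45.0% and 30.97%. The far set, which holds Ighv1-81, had the smallest SD (37.3% ± 7.10, n = 3). With only segments of at least 10 counts divided in the same way it was 30.8% ± 16.1. The near set holds no Ighv1 segment and includes Ighv5-16, the middle set holds 27 of them and includes Ighv1-9, and the far set holds 33. Position and family can thus not be told apart for the near set against the others. The middle and far sets are both mostly Ighv1, and an effect of position within that family was not tested.

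**Figure D5:**
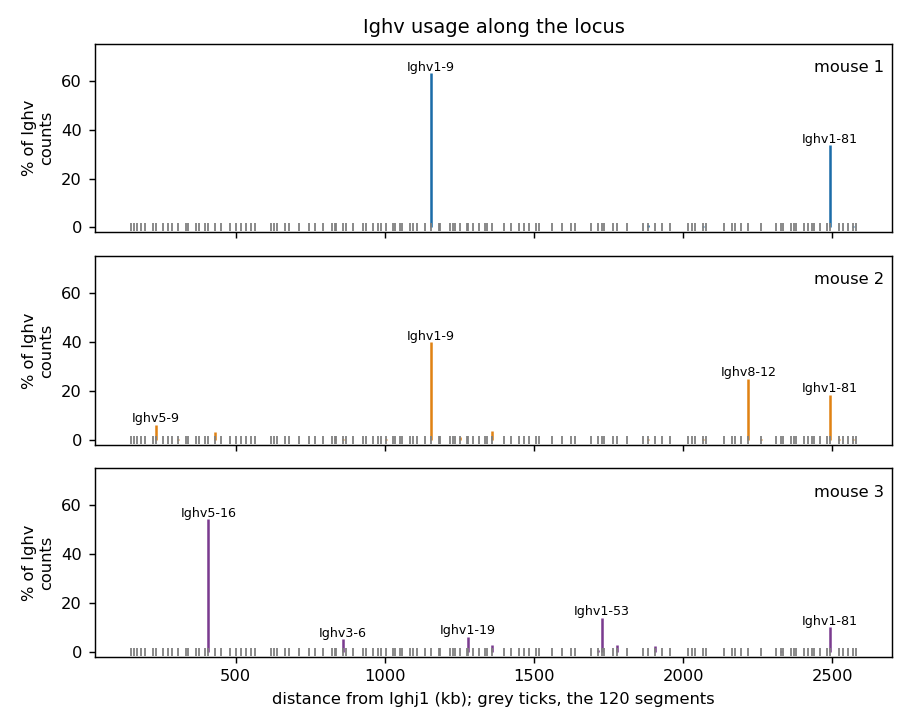
Share of Ighv counts (%) of each segment against its distance from Ighj1 (kb), 1 panel per library, with grey ticks for all 120 segments and names above 5%. Ighv1-81 stands at the far end in all 3 mice, and the other tall lines differ between mice except Ighv1-9 in mice 1 and 2.

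Whether single segments varied more between mice than genes of their abundance was tested across the whole table with edgeR's quasi-dispersion F test and Benjamini-Hochberg adjustment. Of 9175 genes, 19 were called at an adjusted p below 0.05, which is 0.207%. Among the 19, 18 had symbols that start with Igh, Igk or Igl, so most calls were immunoglobulin genes other than Ighv. The filter on low counts asks for counts in every library and left only 3 Ighv segments, Ighv1-9, Ighv1-81 and Ighv1-58. Of these, 1 was called. Ighv1-9 had 122 times the dispersion of the abundance trend (edgeR adjusted p = 0.000145). Ighv1-81 had 4.01 times and Ighv1-58 had 2.16 times (adjusted p = 0.977 for both). Without mouse 3 the ratio for Ighv1-9 fell to 1.21 (edgeR adjusted p = 0.995). With a robust prior the call was also lost (edgeR adjusted p = 0.985), but the ratio was 126. Over the alternatives that give a p-value its adjusted p ranged from 1.59e-25 to 0.995.

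The filter removed the segments that were present in 1 mouse. With all 15092 genes that had a count, edgeR called 27 (0.179%), and all 27 had symbols that start with Igh, Igk or Igl. Of these, 8 were among the 78 Ighv segments tested. They were Ighv5-16 (edgeR adjusted p = 0.00213), Ighv1-53 (0.00260), Ighv8-12 and Ighv1-19 (0.00596 each), Ighv1-9 (0.0102), Ighv3-6 (0.0156), Ighv1-55 (0.0258) and Ighv1-59 (0.0399). A setting added after the data were seen asked for at least 10 counts in at least 1 library. With it edgeR called 12 of 12420 genes (0.0966%), and all 12 had such symbols. Of these, 2 were Ighv segments, Ighv5-16 (edgeR adjusted p = 0.0305) and Ighv1-53 (0.0347). A segment that enters through 1 high library has to differ between mice, so these counts describe the unevenness and are no independent support for it.

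Genes of B-lineage cells were read beside these values. Of 10 B cell markers 6 had 0 counts in each library, among them Ms4a1 (CD20) and Pax5, a regulator of B cell identity, and 2 reached 1 CPM in all mice. These were Cd79a (10.2, 12 and 41.7 CPM in mice 1, 2 and 3) and Cd79b (139, 129 and 155), the signalling chains of the B cell receptor. The summed level of the list was 141 to 196 CPM. Of 11 plasma cell markers 9 reached 1 CPM in all mice, with summed levels of 5991, 14231 and 19302 CPM, most of it Jchain, which links antibody units in secreted polymeric IgA and IgM. Without Jchain the sums were 463, 441 and 829 CPM.

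The plasma cell genes did not follow 1 pattern across the mice. Some were highest in mouse 3 and close together in mice 1 and 2, as the Ighv share of the library was. Mzb1, a chaperone of antibody-secreting cells, had 22.6, 24.4 and 85.4 CPM, and Xbp1, a regulator of secretion, had 339, 341 and 604. Tnfrsf17 (BCMA), a survival receptor of plasma cells, had 5.38, 6.43 and 9.70, whereas Sdc1 (CD138) stayed at 0.614 CPM or below. Others differed. Jchain had 5527, 13790 and 18473 CPM, Edem1 had 68.3, 20.9 and 91.8, and Tnfrsf13b had 3.97, 1.14 and 4.18. Irf4 (7.94, 32.2 and 13.6) was highest in mouse 2 and Derl3 (3.84, 2.90 and 2.53) in mouse 1. Xbp1 and Irf4 are also used by other lymphocytes. The recombinase genes Rag1 and Rag2 had 0 counts and 1 count over the 3 libraries, and Dntt, which adds junctional bases, had 0. The part of B-lineage cells in the Ighv counts was not tested, and in bulk RNA a change in the number of such cells and in RNA per cell cannot be told apart.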

How the data were processed

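The deposited table gives whole-number read counts per Entrez gene ID for each library, which the authors left unnormalized. The submitters' processing notes name STAR 2.3.0, CASAVA 1.8.2 and the mm10 build, and per the labels' protocols a Clontech SMARTer kit for low RNA input was used. The sources used here do not give the counting program, the annotation or the handling of reads that map to several segments, cross a V-D-J join or carry somatic mutations, and each can move counts between segments or remove them. Of 27179 IDs 25275 matched a symbol in the RefSeq table of GRCm38.p6. RefSeq lists 183 Ighv symbols, and the 63 with no row here, all annotated as pseudogenes, were not analysed here. Segment type, exonic length and sequence came from GENCODE M21, matched by symbol for all 120.

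Mice 1, 2 and 3 had 22112425, 17819551 and 26374248 counts, and CPM used TMM factors of 1.03, 0.987 and 0.989 (edgeR 4.0.16, R 4.3.3). Shares were computed on the counts. Differences within libraries used exact sign-flip tests. Variability used an intercept-only quasi-likelihood fit after filterByExpr (minimum count 10), an F test of the upper tail with Benjamini-Hochberg adjustment. On simulated data with 8960 genes it recovered 23 of 100 genes raised 8-fold in 1 library and 72 of 100 raised 64-fold, with 0 false calls. Alternatives used DESeq2 1.42.0, limma 3.58.1 and other filters, lengths and libraries. Named segments were the 5 highest of any library, those called or with the lowest p, and family leaders. Segments with at least 100 counts in a library and Ighv1-83 were added after the values were seen. The members and lists were chosen with earlier results of these data known. Replicates are separate mice per the design text, and their spread also holds that of the sort and the amplification. The promoter motif planned for Ighv genes was not analysed here.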

Additional observations from a re-analysis of the deposited data

How the results depend on the processing

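No paired analysis was possible because all 3 libraries belong to 1 group. The count of Ighv segments more variable than their abundance trend, 1 in the report, was 1 without TMM, with DESeq2 size factors, with DESeq2 dispersion outliers and with limma. It was 8 without a filter and when a mean of at least 5 CPM was required, and 2 with at least 10 counts in at least 1 library. With the mean of at least 5 CPM, 13 Ighv segments were tested, and edgeR called 27 of 7648 genes (0.353%). Segments can enter each of these settings through 1 high library, so these counts are no independent support. With a robust prior the count was 0, and edgeR called 0 of 9175 genes. The 1 segment with an unadjusted p below 0.05 there was Ighv1-81 (edgeR unadjusted p = 0.0491), and Ighv1-9 had 0.515 on the same test. Without each mouse in turn the count was 0 to 2. It was 0 without mouse 3, with 0 at an unadjusted p below 0.05. Without mouse 1 it was 2 of 7 Ighv segments tested, Ighv1-9 and Ighv3-6. Over all genes tested, edgeR called 21 of 9366 (0.224%) without mouse 3 and 31 of 9841 (0.315%) without mouse 1. A robust prior gives less weight to the trend for genes with outlying dispersion, so it discounts the outliers that the test looks for. It can thus not decide how firm the call of Ighv1-9 is. The number of segments at 1 CPM in every mouse, 1 in the report, became 24 for any count and 1 to 5 with a mouse left out. As a share of all immunoglobulin counts the Ighv sum was 3.14% ± 1.70 in place of 0.116% of the library, and mouse 1 in place of mouse 3 was highest (4.89%, 1.49% and 3.05% in mice 1, 2 and 3). The difference between the first Ighv and Igkv segments was -15.9 to 11.1 percentage points with a mouse left out and reversed without mouse 1. The remaining alternatives covered length, a minimum of 10 counts, pseudogenes, another division of the locus and mitochondrial genes. They moved no mean of usage, dominance or position by more than 1 SD and turned no direction. With a minimum of 10 counts, however, the SD of the far set of segments rose from 7.10 to 16.1. Summing close copies left the share of the first segment unchanged at 63.1%, 39.8% and 54.2% in mice 1, 2 and 3. That sum is no check on reads shared between related segments. Leaving out a mouse moved the mean difference between Ighv1 and Ighv5 to 20.4 to 76.8. At equal Ighv counts mouse 3 would have 39.4 segments with a count in place of 66. Depth limits segments with 0 counts to below 0.115 to 0.171 CPM. The robust prior, mouse 3 and the filter of at least 10 counts in 1 library each ended the call of Ighv1-9 (adjusted p 0.985, 0.995 and 0.0788).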
